A study of Mus musculus with 12 samples.

Results

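G protein-coupled receptors with lipid, acid or metabolite ligands, and some orphan receptors with no settled ligand, were followed in cultured mouse lymph node dendritic cells through 7 genes, Gpr65, Gpr84, Gpr132, Gpr183, Gpr35, Gpr18 and Gpr171. They were named by gene symbol, and every probe set annotated to 1 of them alone was taken, giving 9 probe sets of the 45101 on the array and 7 genes of 18194. Gpr65 was chosen by its measured fall after stimulation, with no stated threshold, so its changes with time are given as a description without a test. The other 6 were included as members of the same functional class. Earlier results of these data were known when the receptors were chosen, so the tests of the 6 were not blind to the data. The cells came from C57BL/6 mice labelled p38a-knockout (KO) or wild type (WT), where p38a is the stress-activated kinase encoded by Mapk14. They were cultured and sampled 0, 2 and 4 h after Pam3CSK4, a synthetic lipopeptide ligand of Toll-like receptor TLR2, which the labels give at 1 mg/ml. The 6 groups were KO 0 h, KO 2 h, KO 4 h, WT 0 h, WT 2 h and WT 4 h, with 2 Affymetrix arrays each, labelled A and B. No untreated cells at 2 or 4 h were among the 12 arrays, so the effect of the ligand and that of time in culture cannot be told apart. The labels do not say how or in which cells p38a was deleted, or whether A and B came from separate mice or cultures, so the p-values measure the spread between these arrays, which may be technical.

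Receptors of this class read the chemical surroundings of an immune cell. Gpr65, also called TDAG8, is activated by extracellular protons and raises cAMP through Gs. Gpr132 is related to the proton sensors and has been linked to lysophosphatidylcholine and oxidised fatty acids. Gpr84 responds to medium-chain fatty acids through Gi, and Gpr183, or EBI2, is the receptor for a dihydroxylated oxysterol that guides B cells, T cells and dendritic cells to their places in lymphoid tissue. Gpr35 has kynurenic acid among its proposed ligands, Gpr18 has been paired with N-arachidonoyl glycine and with a resolvin, and Gpr171 with the neuropeptide BigLEN.

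All 7 genes and all 9 probe sets passed the filter on dim signals, set at 4.73 on the log2(signal + 16) scale on which every level below is given. The deposited intensities were not on a common scale, with trimmed means of 66.6 to 119 between arrays, and were quantile-normalised first. The 2 arrays of a group correlated at 0.987 to 0.990 over the 12792 genes tested. All 11 dendritic cell markers on the fixed list passed the filter, Fscn1, Ccr7 and H2-Aa among the brighter ones. Markers of other cells also passed: 11 of 11 measured for T cells, 8 of 9 for B cells (Pax5, which defines them, did not) and 6 of 6 for NK cells. The counts were 8 of 8 for macrophages and monocytes, 6 of 6 for plasmacytoid dendritic cells and 5 of 7 for neutrophils (Cxcr2 and Camp did not). Of all 18194 genes 12792 passed, so passing this filter does not show that a cell type was present. Mapk14, the gene deleted in the KO by label, went against the label by the brightest of its 6 probe sets: it read 7.93 to 8.37 on KO and 7.44 to 8.41 on WT arrays, with an average KO minus WT difference of 0.31 ± 0.08 (limma, adjusted p = 0.014). The labels do not place the deletion within the gene, so this probe set may not read the deleted part, and KO and WT below stand for what the arrays are labelled.

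The windows upstream of 4 of the genes are printed: Gpr183 and Gpr18, which lie next to each other on chromosome 14 and both rose, and Gpr65 and Gpr35, which were lower after stimulation. No result below was drawn from these sequences. Each is the 250 bases before the annotated start in RefSeq, assembly GRCm38.p6, read 5′ to 3′ on the gene's strand, with motif matches in capitals. A window was found for 6 of the 7 genes. Gpr35 has 2 annotated starts, of which the second, the one with motif matches, is shown.
Gpr183, chr14:121965194-121965443, minus strand: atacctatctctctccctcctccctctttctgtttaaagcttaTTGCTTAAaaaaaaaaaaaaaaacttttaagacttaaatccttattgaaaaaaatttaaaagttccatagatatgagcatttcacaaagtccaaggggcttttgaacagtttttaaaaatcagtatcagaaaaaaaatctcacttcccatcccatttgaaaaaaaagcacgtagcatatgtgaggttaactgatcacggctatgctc
Gpr18, chr14:121915889-121916138, minus strand: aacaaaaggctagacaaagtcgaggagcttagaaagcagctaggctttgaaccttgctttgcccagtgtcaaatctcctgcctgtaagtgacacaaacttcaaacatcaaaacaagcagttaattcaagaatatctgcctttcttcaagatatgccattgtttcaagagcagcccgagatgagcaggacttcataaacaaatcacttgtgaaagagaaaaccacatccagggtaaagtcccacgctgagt
Gpr65, chr12:98268385-98268634, plus strand: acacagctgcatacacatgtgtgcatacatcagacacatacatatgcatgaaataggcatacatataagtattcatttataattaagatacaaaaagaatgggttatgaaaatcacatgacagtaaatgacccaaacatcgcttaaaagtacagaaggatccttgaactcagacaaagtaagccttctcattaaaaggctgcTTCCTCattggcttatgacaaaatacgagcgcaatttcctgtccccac
Gpr35, chr1:92978653-92978902, plus strand: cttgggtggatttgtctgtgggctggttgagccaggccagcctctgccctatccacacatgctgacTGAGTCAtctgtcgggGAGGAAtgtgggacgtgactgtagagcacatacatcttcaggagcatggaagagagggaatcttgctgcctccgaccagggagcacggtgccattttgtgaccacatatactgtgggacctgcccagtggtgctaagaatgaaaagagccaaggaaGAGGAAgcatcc

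The motifs searched on both strands were NF-kB, by its usual degenerate consensus, AP-1 (TGANTCA, a palindrome), the cAMP response element CRE (TGACGTCA), the PU.1 core GAGGAA and C/EBP (TTGCNNAA). They occurred in 7.25%, 6.75%, 1.55%, 23.3% and 9.56% of 32851 RefSeq windows of the same length, in that order. Gpr183 held a C/EBP match 207 to 200 bases before its start. Gpr65 held the PU.1 core on the minus strand, 48 to 43 bases before its start. The second start of Gpr35 had an AP-1 match at 184 to 178 bases and PU.1 cores at 168 to 163 and at 12 to 7 bases. Gpr132, whose window is not printed, held an NF-kB match at 88 to 79 bases. None of the 5 motifs was found in the windows of Gpr18, Gpr84 or the other start of Gpr35, and no matches of different motifs overlapped. A match is a run of letters in this window and says nothing about binding.

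Across the class, the receptors did not move together. Gpr183 and Gpr18 rose after stimulation in both genotypes, as did Gpr84 except in WT cells at 2 h, where it did not pass the test, Gpr35 fell, Gpr65 was lowest at 2 h and part of the way back at 4 h, and Gpr132 and Gpr171 showed small or probe-dependent differences. Among the 6 genes other than Gpr65, 3 rose and 1 fell in KO cells at 2 h, against a background of 7.85% of all tested genes called higher and 11.7% called lower. At 4 h in KO cells, 3 were called higher and 1 lower, with 7.24% and 10.9% of all genes. In WT cells 2 were called higher and 2 lower at 2 h, with 8.43% and 11.5% of all genes, and 3 higher and 1 lower at 4 h, with 8.31% and 9.9%. The median difference of the 6 was 0.21 in KO cells and 0.15 in WT cells at 2 h, and 0.64 and 0.37 at 4 h, against medians over all genes between −0.06 and −0.02. Calls are at an adjusted p under 0.05 from limma, adjusted over all 12792 genes, and differences are log2 values that understate the change of dim genes.

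**Figure D1:**
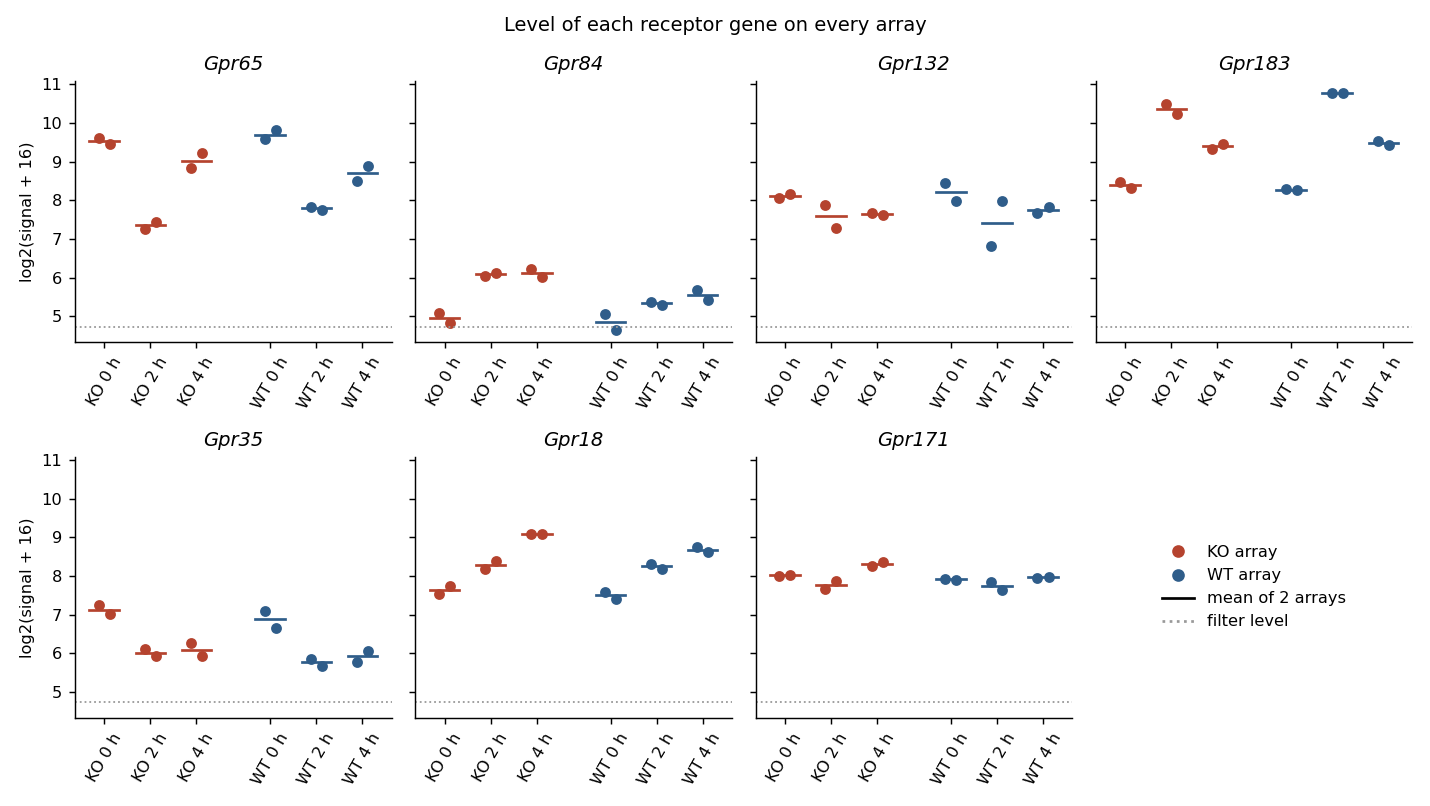
Level of each receptor gene on every array, as log2(signal + 16), for KO (red, left) and WT (blue, right) at 0, 2 and 4 h; points are arrays, bars are means of 2 arrays and the dotted line is the filter level of 4.73. Gpr183 peaked at 2 h and Gpr18 was highest at 4 h on both sides, while Gpr65 was lowest at 2 h.

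Gpr183, the oxysterol receptor, rose most of the 6 at 2 h. Its probe set 1437356_at read 8.48 and 8.33 (0 h), 10.48 and 10.24 (2 h) and 9.34 and 9.45 (4 h) on the KO arrays. WT arrays gave 8.30 and 8.26 (0 h), 10.77 and 10.78 (2 h) and 9.53 and 9.43 (4 h). Every array at 2 h was above every array at 4 h, and those were above every array at 0 h, in both genotypes. At 2 h the gene was higher than at 0 h by 1.95 ± 0.09 in KO cells (3.87-fold, adjusted p = 3.4e-10) and by 2.49 ± 0.09 in WT cells (5.63-fold, adjusted p = 1.5e-11). At 4 h it was still higher than at 0 h, by 0.99 in KO cells (adjusted p = 9.5e-07) and 1.20 in WT cells (adjusted p = 9.5e-08). Between 2 and 4 h it fell by 0.97 in KO cells and by 1.29 in WT cells (adjusted p = 4.3e-06 and 3.2e-07), and the KO call was lost on the deposited scale without normalisation (−0.70, adjusted p = 0.11).

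At 2 h Gpr183 was lower on the KO arrays than on the WT arrays, with a difference of −0.41 ± 0.09 (adjusted p = 0.023), and the 2 groups did not overlap. It was the 1 gene called of the 6 at that time, against 2.3% of all genes. It did not pass when 1 array was dropped, KO 2 h B (−0.29, adjusted p = 0.24), WT 2 h A (0.11) or WT 2 h B (0.15), nor on the deposited scale (−0.74, adjusted p = 0.24). The second probe set of the gene, 1457691_at, read 8.79 and 8.94 in KO and 8.74 and 9.22 in WT cells at 2 h, and these overlapped. In the fit over 27061 probe sets, its KO minus WT difference at 2 h was −0.11 ± 0.17 (adjusted p = 0.84), beside −0.41 (adjusted p = 0.045) for 1437356_at, with 1.21% of probe sets called. The test of whether the 2 h response itself differed between the genotypes gave −0.54 ± 0.13 for the gene (adjusted p = 0.30), and 0.0313% of all genes were called in that comparison.

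Over time, the probe sets of Gpr183 went the same way. In the probe set fit 1457691_at rose by 1.91 ± 0.17 in KO cells at 2 h (adjusted p = 2.3e-06) and by 2.16 ± 0.17 in WT cells (adjusted p = 5.1e-07), where 13.1% and 13.7% of all probe sets were called. It was 1.02 and 0.89 higher at 4 h than at 0 h (adjusted p = 0.00083 in KO cells and 0.0023 in WT cells).

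Gpr18 also rose, with its highest values at 4 h. It read 7.54 and 7.74 (0 h), 8.18 and 8.40 (2 h) and 9.08 and 9.09 (4 h) on the KO arrays. The WT arrays read 7.60 and 7.41 (0 h), 8.31 and 8.19 (2 h) and 8.74 and 8.63 (4 h). Levels went up from each time to the next without overlap within a genotype, and at 4 h both KO arrays were above both WT arrays. The gene was higher than at 0 h by 0.65 ± 0.11 in KO cells (adjusted p = 0.00045) and 0.75 ± 0.11 in WT cells (adjusted p = 0.00011) at 2 h. On the deposited scale both 2 h calls were lost, at 0.16 (adjusted p = 0.64) in KO cells and 0.38 (adjusted p = 0.29) in WT cells. The medians of all genes on that scale were −0.41 and −0.35 at 2 h. At 4 h the differences were 1.44 in KO cells (2.72-fold, adjusted p = 1.3e-07) and 1.18 in WT cells (2.27-fold, adjusted p = 9.4e-07). From 2 to 4 h it rose further, by 0.79 in KO cells (adjusted p = 0.00016) and by 0.44 in WT cells (adjusted p = 0.016). Dropping WT 2 h B or WT 4 h A ended the WT call (adjusted p = 0.13 for each), as did the deposited scale (0.65, adjusted p = 0.22). The 4 h difference between KO and WT, 0.40 ± 0.11, did not pass the test (adjusted p = 0.071), nor did the average over the times, 0.19 ± 0.06 (adjusted p = 0.062). The average passed without 3 of the 12 arrays, each in turn, with an adjusted p of 0.04 at the lowest.

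Gpr183 and Gpr18 are adjacent protein-coding genes, and both lie within the span of Ubac2 in the RefSeq table. Ubac2, an endoplasmic reticulum protein gene, was −0.46 at 4 h in KO cells (adjusted p = 0.0061) and −0.58 in WT cells (adjusted p = 0.00099), so it fell at 4 h in both genotypes while both receptor genes were higher. The KO call of Ubac2 was lost without KO 0 h B or KO 4 h B (adjusted p = 0.061 and 0.075). Beyond Gpr18 on the other side, Dock9 was −0.41 at 4 h in KO cells (adjusted p = 0.011) and −0.26 in WT cells (adjusted p = 0.11). The pair differed in course: between 2 and 4 h Gpr18 rose and Gpr183 fell in both genotypes. In those 4 h minus 2 h comparisons 2 of the 6 were called higher and 1 lower in KO cells, with 6.46% and 7.25% of all genes, and 1 higher and 1 lower in WT cells, with 5.32% and 5.75%.

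Gpr84, the medium-chain fatty acid receptor, rose at 2 and 4 h in KO cells and at 4 h in WT cells, and was higher on the KO arrays. It was a dim gene, at 5.08 and 4.83 (0 h), 6.05 and 6.12 (2 h) and 6.23 and 6.03 (4 h) on the KO arrays. Values on WT arrays were 5.07 and 4.64 (0 h), 5.38 and 5.30 (2 h) and 5.67 and 5.41 (4 h), and 1 of those values lay under the filter level. All 4 KO arrays at 2 and 4 h were above every WT array, and the 0 h arrays of both genotypes overlapped. In KO cells the gene rose by 1.13 ± 0.19 at 2 h (2.19-fold, adjusted p = 0.00063) and was 1.17 above 0 h at 4 h (2.26-fold, adjusted p = 0.00043). In WT cells the differences were 0.48 at 2 h (adjusted p = 0.099) and 0.68 at 4 h (adjusted p = 0.021), and the second failed the test when WT 0 h B (0.47, adjusted p = 0.22) or WT 4 h A (0.55, adjusted p = 0.17) was dropped, and on the deposited scale (0.64, adjusted p = 0.12). The 2 h and 4 h levels did not differ beyond the test in KO cells (0.04, adjusted p = 0.91) or in WT cells (0.20, adjusted p = 0.60).

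Averaged over the times, Gpr84 was 0.48 ± 0.11 higher on the KO arrays (1.40-fold, 95% interval 0.24 to 0.72, adjusted p = 0.011), and it was the 1 of the 7 genes called, against 10.5% of all genes. The call held with each array left out in turn, at 0.41 to 0.55, and was lost on the deposited scale without normalisation (0.34, adjusted p = 0.19). At single times the KO minus WT differences were 0.10 at 0 h (adjusted p = 0.88), 0.75 at 2 h (adjusted p = 0.059) and 0.59 at 4 h (adjusted p = 0.16). The 2 h value passed without WT 0 h A and without WT 0 h B (adjusted p = 0.047 at the lowest). The 2 h and 4 h responses differed between KO and WT by 0.64 ± 0.27 (adjusted p = 0.82) and 0.49 ± 0.27 (adjusted p = 0.90), and 0 of the 6 genes were called in either comparison, with 0.0469% of all genes called at 4 h. At 0 and 4 h, 0 of the 6 were called between the genotypes, with 3.3% and 2.39% of all genes.

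Macrophage and monocyte markers were higher on the KO arrays too, and at 0 h 6 of the 8 were called higher in KO. Their summed signal was 4243 to 4281 at 0 h, 3035 to 3226 at 2 h and 2913 to 3026 at 4 h on the KO arrays. On the WT arrays the sums were 2533 to 2576, 1885 to 2062 and 1650 to 1818. Averaged over the times, 6 of the 8 markers passed the test as higher in KO, Lyz2 by 0.95 (adjusted p = 5.9e-09) and Marco by 1.08 (adjusted p = 6.5e-07) among them. Other lists held calls on this average too, where 10.5% of all genes were called. Of 11 dendritic cell markers 4 were higher and 1 lower in KO, and of 6 plasmacytoid markers 1 was higher and 2 lower. Of 8 B cell markers 2 were higher, of 11 T cell markers 1 was higher and 1 lower, and of 6 NK cell markers 1 was lower. None of the 5 neutrophil markers was called. The macrophage and monocyte sums were lower at 2 and 4 h than at 0 h in both genotypes. Fewer cells of a type and less RNA per cell cannot be told apart in bulk samples, and the part of these cells in the Gpr84 difference was not tested.

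**Figure D2:**
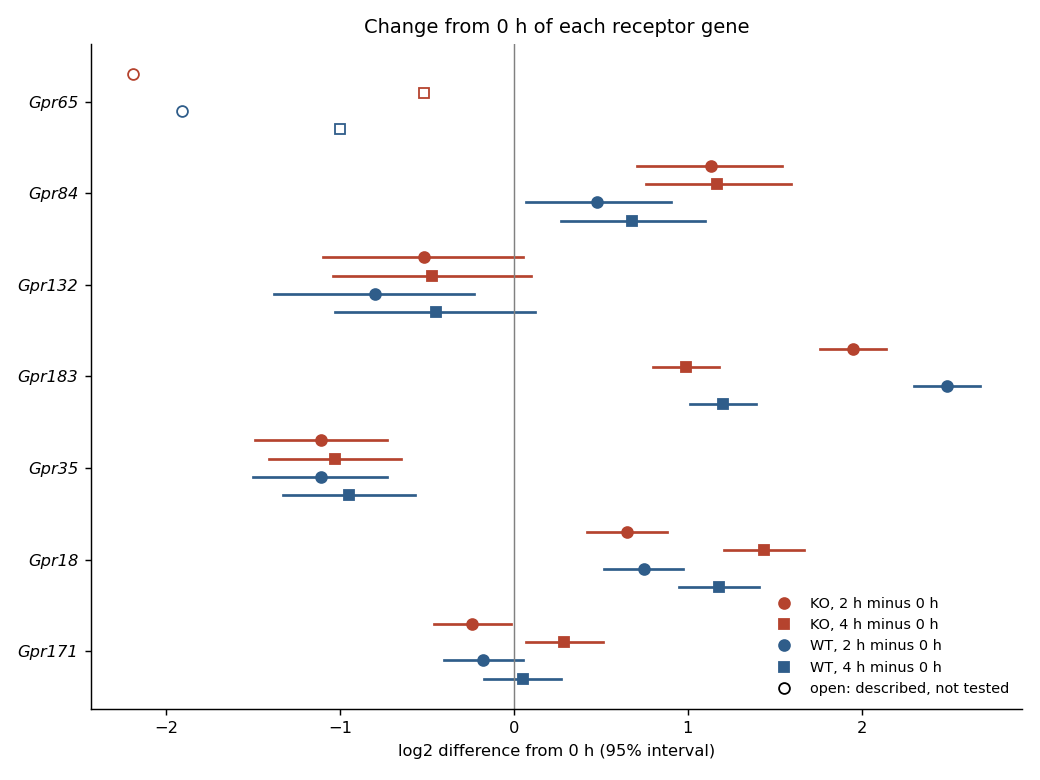
Log2 difference from 0 h for each receptor gene at 2 h (circles) and 4 h (squares) in KO (red) and WT (blue) cells, with 95% intervals of the limma fit; the open symbols of Gpr65 carry no interval because the gene was chosen for this change. The intervals of Gpr183, Gpr18, Gpr35 and Gpr84 lie on 1 side of 0 at both times in both genotypes, those of Gpr84 in WT cells closest to 0.

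Gpr65, the proton sensor, was lower at 2 h than at 0 h in both genotypes, which is what it was selected on. It read 9.62 and 9.47 (0 h), 7.26 and 7.45 (2 h) and 8.83 and 9.22 (4 h) on the KO arrays. The WT arrays gave 9.58 and 9.82 (0 h), 7.82 and 7.76 (2 h) and 8.50 and 8.90 (4 h). The 2 h arrays were below all others, the 0 h arrays above all others, and the 4 h arrays in between, with KO and WT overlapping at 0 and 4 h but not at 2 h. The differences from 0 h were −2.19 in KO and −1.91 in WT cells at 2 h, and −0.52 and −1.0 at 4 h. Between 2 and 4 h the gene was 1.67 higher in KO cells and 0.91 higher in WT cells. The KO minus WT difference was −0.16 at 0 h, −0.43 at 2 h and 0.33 at 4 h. The average of these over the times is a separate contrast from the changes over time that Gpr65 was chosen on. That choice was still made with earlier results of these data known. At −0.09 ± 0.08 the average did not pass the test (95% interval −0.26 to 0.09, adjusted p = 0.58).

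The lysosomal enzyme gene Galc, next to Gpr65 on chromosome 12, was also lower after stimulation. It read 7.15 and 6.96 (0 h), 5.46 and 5.74 (2 h) and 5.77 and 6.00 (4 h) on the KO arrays. WT arrays read 7.55 and 7.24 (0 h), 5.65 and 6.02 (2 h) and 6.04 and 6.12 (4 h). At 2 and 4 h Galc fell by 1.45 and 1.17 in KO cells (adjusted p = 1.6e-05 and 0.00014), and by 1.56 and 1.32 in WT cells (adjusted p = 6.4e-06 and 4.1e-05). Its 4 h and 2 h levels differed by 0.28 in KO cells (adjusted p = 0.32) and 0.25 in WT cells (adjusted p = 0.42).

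Gpr35, the receptor with kynurenic acid among its proposed ligands, fell in both genotypes. It read 7.26 and 7.01 (0 h), 6.11 and 5.93 (2 h) and 6.26 and 5.94 (4 h) on the KO arrays. The WT arrays read 7.10 and 6.66 (0 h), 5.85 and 5.68 (2 h) and 5.79 and 6.06 (4 h). All 0 h arrays were above all later arrays, and the 2 h and 4 h arrays overlapped within each genotype. Its 2 h difference was −1.11 ± 0.18 in KO cells (2.16-fold lower, adjusted p = 0.00034) and −1.11 ± 0.18 in WT cells (adjusted p = 3e-04). At 4 h the differences were −1.03 in KO cells (adjusted p = 0.00065) and −0.95 in WT cells (adjusted p = 0.0012). KO and WT levels differed by 0.23 on average over the times (95% interval 0.01 to 0.45, adjusted p = 0.19). The calls over time held with each of the 12 arrays left out in turn.

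Gpr171 passed the test over time only between 2 and 4 h in KO cells. It read 8.0 and 8.03 (0 h), 7.67 and 7.88 (2 h) and 8.25 and 8.36 (4 h) on the KO arrays. WT arrays showed 7.92 and 7.91 (0 h), 7.85 and 7.63 (2 h) and 7.96 and 7.97 (4 h). The KO 4 h arrays were the highest of all, and the 2 h arrays of both genotypes overlapped at the low end. Its differences from 0 h were −0.24 at 2 h and 0.29 at 4 h in KO cells (adjusted p = 0.13 and 0.071), and −0.18 and 0.05 in WT cells (adjusted p = 0.28 and 0.82). Between 2 and 4 h it rose in KO cells by 0.53 ± 0.10 (adjusted p = 0.0033), and in WT cells the difference was 0.23 (adjusted p = 0.20). The KO call was lost on the deposited scale (0.80, adjusted p = 0.074), where the 2 h difference in KO cells passed instead (−0.70, adjusted p = 0.036). For these comparisons the medians of all genes on that scale were 0.2 and −0.41, in that order. Whether the 2 to 4 h changes differ between the genotypes was not tested. The gene Med12l, whose span holds Gpr171, was at −0.23 and 0.09 in KO cells at 2 and 4 h (adjusted p = 0.52 and 0.84).

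Gpr132 was read by probe sets that disagreed. The brighter one, 1444233_at, read 8.06 and 8.16 (0 h), 7.88 and 7.29 (2 h) and 7.67 and 7.61 (4 h) on the KO arrays. The WT levels were 8.45 and 7.98 (0 h), 6.83 and 7.99 (2 h) and 7.68 and 7.84 (4 h). The 2 WT 2 h arrays were the furthest apart of any pair, and they overlapped the WT 0 h arrays. By this probe set the gene was −0.80 ± 0.27 at 2 h in WT cells (adjusted p = 0.047) and −0.52 in KO cells (adjusted p = 0.20). On the deposited scale the KO difference was −0.98 (adjusted p = 0.0033), where the median of all genes was itself −0.41. Dropping WT 2 h A ended the WT call (−0.22, adjusted p = 0.57), as did 7 of the other 11 single arrays, and the difference grew to −1.39 without WT 2 h B. The dimmer probe set, 1421755_at, read 5.05 and 5.15, 5.54 and 5.43, and 5.01 and 5.04 on the KO arrays. It read 5.23 and 5.39, 5.22 and 5.35, and 4.93 and 5.26 on the WT arrays. Its 2 h differences were 0.38 in KO cells (adjusted p = 0.21) and −0.02 in WT cells (adjusted p = 0.96) in the probe set fit, where 1444233_at in WT cells had an adjusted p of 0.077.

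**Figure D3:**
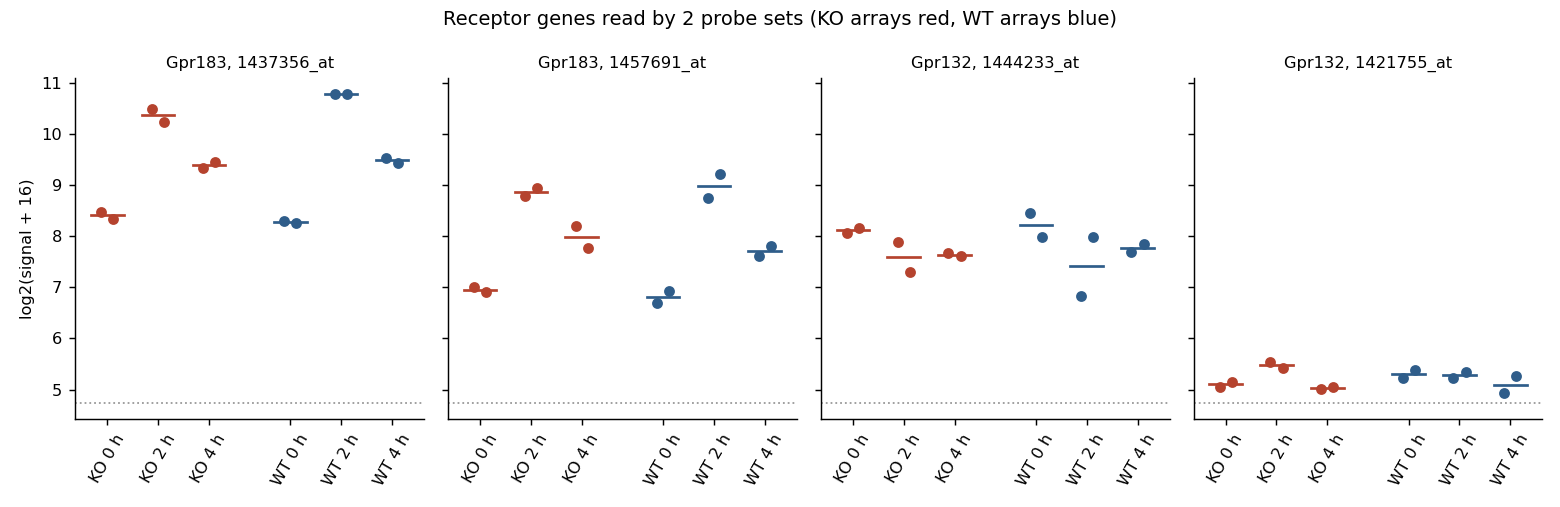
Levels by array, as log2(signal + 16), of both probe sets of Gpr183 and of Gpr132, KO (red) left of WT (blue), with bars at the mean of 2 arrays. The Gpr183 probe sets follow the same course, whereas 1444233_at and 1421755_at of Gpr132 do not.

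Lymphocytes also carry several of these receptors, and single genes moved within their marker lists. The summed T cell marker signal was 2858 to 2969 at 0 h, 1810 to 1829 at 2 h and 1979 to 2070 at 4 h on the KO arrays, and 3051 to 3334, 1887 to 1933 and 2116 to 2219 on the WT arrays. Of the 11 T cell markers 1 was called at 2 h in each genotype, where 11.7% of all genes were called lower in KO cells and 11.5% in WT cells. This was Il7r, the interleukin receptor gene and the brightest of them, which fell by 1.19 at 2 h in KO cells (adjusted p = 1.2e-08) and by 1.28 in WT cells (adjusted p = 4.2e-09). At 4 h 2 T cell markers were called lower in KO cells and 4 in WT cells, with 10.9% and 9.9% of all genes. The B cell sum was 681 to 730, 736 to 754 and 525 to 625 on the KO arrays and 563 to 564, 597 to 614 and 462 to 475 on the WT arrays. B cell markers went both ways, as Fcer2a rose by 1.05 and Cd79b fell by 1.48 at 4 h in KO cells (adjusted p = 0.0025 and 8.2e-07). NK cell markers summed to 1644 to 1716 at 0 h and 1389 to 1407 at 4 h on the KO arrays, and to 1783 to 1820 and 1398 to 1401 on the WT arrays. Among them Ncr1 rose by 0.93 and Klrd1 fell by 0.90 at 4 h in KO cells (adjusted p = 0.0026 and 2e-05). Neutrophil markers summed to 138 to 144 at 0 h and 367 to 399 at 4 h on the KO arrays, and to 155 to 168 and 353 to 374 on the WT arrays. Of the 5 tested, 1 was called at 4 h in KO cells and 2 in WT cells, with S100a8 higher by 1.67 and 1.66 (adjusted p = 5.6e-07 in KO cells and 5e-07 in WT cells). Plasmacytoid markers summed to 8303 to 8392 at 0 h, 8046 to 8584 at 2 h and 7263 to 7495 at 4 h on the KO arrays. On the WT arrays they summed to 8251 to 8397, 8251 to 8648 and 7579 to 7803. Of the 6 tested, 1 was called higher and 2 lower at 4 h in each genotype. Of all genes, 7.24% were higher and 10.9% lower in KO cells, and 8.31% and 9.9% in WT cells. The part of these cells in the receptors' changes was not tested.

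Averaged over the times, the remaining differences between KO and WT were −0.12 ± 0.05 for Gpr183 (adjusted p = 0.16), 0.16 ± 0.06 for Gpr171 (adjusted p = 0.12) and −0.02 ± 0.16 for Gpr132 (adjusted p = 0.96). The Gpr132 interval, −0.35 to 0.31, leaves room for differences of either sign.

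**Figure D4:**
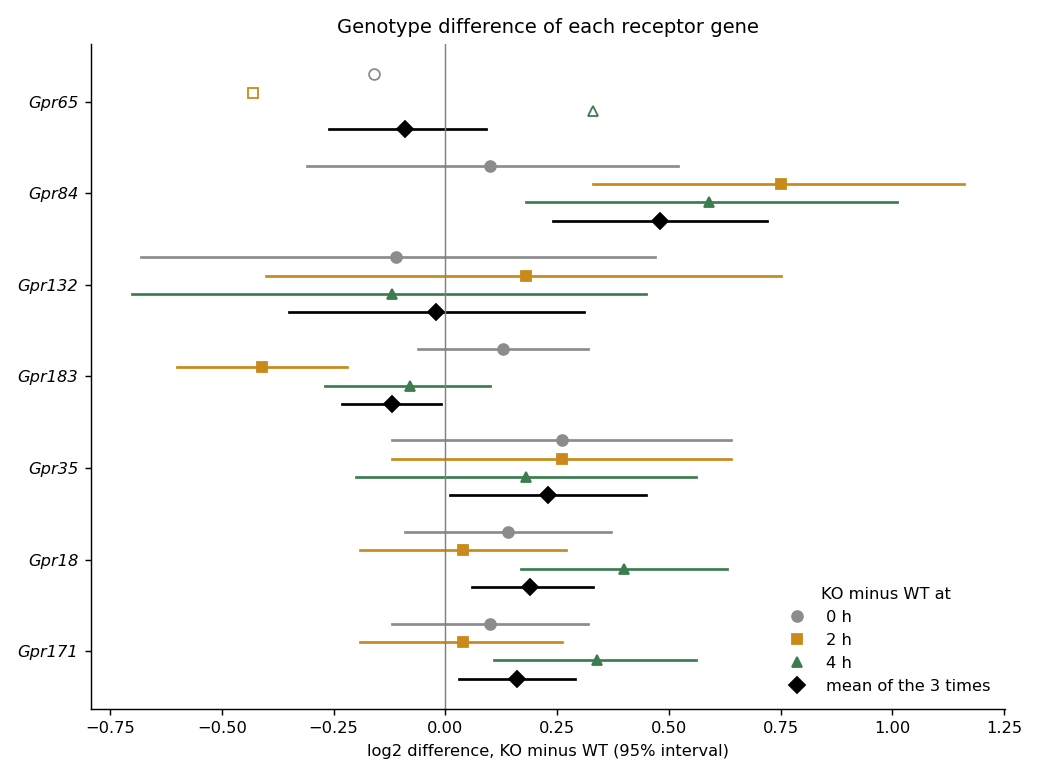
KO minus WT log2 difference of each receptor gene at 0, 2 and 4 h and averaged over the times, with 95% intervals of the limma fit; the open symbols of Gpr65 at single times carry no interval and no test. Gpr84 is the gene called on the average, at 0.48, and Gpr183 the one called at 2 h, at −0.41.

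The oxysterol ligand of Gpr183 is made by Ch25h and Cyp7b1 and broken down by Hsd3b7, and Cyp27a1 makes another hydroxylated cholesterol. Ch25h read 7.37 and 7.34, 7.97 and 8.20, and 7.62 and 7.66 at 0, 2 and 4 h on the KO arrays. It read 7.12 and 7.13, 7.67 and 7.54, and 7.07 and 7.19 on the WT arrays, below the KO arrays at each time. It rose at 2 h by 0.73 in KO cells (adjusted p = 0.00018) and by 0.48 in WT cells (adjusted p = 0.0049), and was 0.29 and 0.01 above 0 h at 4 h (adjusted p = 0.086 and 0.98). Averaged over the times Ch25h was 0.41 ± 0.06 higher in KO (adjusted p = 0.00051, and 0.45 on the deposited scale at a difference of 0.23), and at 2 h by 0.48 (adjusted p = 0.032). Dropping KO 2 h B, WT 2 h A or WT 2 h B ended that 2 h call (adjusted p = 0.26, 0.077 and 0.23). Hsd3b7 fell at 2 h, by 0.70 in KO cells and 0.61 in WT cells (adjusted p = 6.5e-05 and 0.00021), and Cyp27a1 fell by 1.07 and 0.58 (adjusted p = 7.2e-05 and 0.0096). For Cyp27a1 in WT cells the call ended when WT 0 h A (0.13) or WT 2 h B (0.053) was dropped. Cyp7b1 differed from 0 h by 0.13 to 0.35, none past the test (adjusted p = 0.24 to 0.69).

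For the ligand pathway linked to Gpr35, 9 of 11 kynurenine enzyme genes were tested and 2 were called in each genotype at 2 h, both lower, with 11.7% of all genes called lower in KO cells and 11.5% in WT cells. Ido1, which opens the pathway from tryptophan, fell by 0.57 in KO cells (adjusted p = 0.0044) and by 0.75 in WT cells (adjusted p = 0.00048), and averaged −0.67 ± 0.07 on the KO arrays relative to WT (adjusted p = 1.9e-05). Its KO call at 2 h was lost without KO 0 h A or KO 2 h A (adjusted p = 0.079 and 0.053). The aminotransferase gene Got2 was at −0.77 in KO cells and −0.69 in WT cells at 4 h (adjusted p = 2.4e-06 and 6.6e-06). For lysophosphatidylcholine, the lipid linked to Gpr132, 8 of 9 enzyme genes were tested and they went both ways. At 2 h 2 rose and 3 fell in KO cells, and 2 rose and 2 fell in WT cells. Of all genes, 7.85% rose and 11.7% fell in KO cells, and 8.43% and 11.5% in WT cells. Lpcat1, which converts this lipid to phosphatidylcholine, rose by 0.83 at 2 h in KO cells (adjusted p = 1.2e-05) and 0.91 in WT cells (adjusted p = 3.8e-06). Pla2g15 fell by 0.76 and 0.56, both called. Pla2g7, a phospholipase that clears platelet-activating factor and oxidised phospholipids, fell by 0.91 and 1.15 at 4 h (adjusted p = 2.4e-06 in KO cells and 1.6e-07 in WT cells). At that time 1 of the 8 rose and 2 fell in KO cells, with 7.24% and 10.9% of all genes. In WT cells 1 rose and 1 fell, with 8.31% and 9.9%.

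Of 25 other proton and lipid receptor genes, 11 were tested. In KO cells 2 rose and 4 fell at 2 h, and 2 rose and 1 fell at 4 h, and in WT cells 2 rose and 2 fell at 2 h, and 2 rose and 1 fell at 4 h. Of all genes, 7.85% rose and 11.7% fell at 2 h in KO cells and 8.43% and 11.5% in WT cells, and at 4 h 7.24% and 10.9% in KO cells and 8.31% and 9.9% in WT cells. Gpr4, a proton sensor of the same family as Gpr65, read 5.38 and 4.73 (0 h), 6.45 and 6.55 (2 h) and 6.72 and 6.85 (4 h) on the KO arrays. Its WT levels were 5.36 and 4.53, 6.95 and 6.43, and 6.78 and 6.76 in the same order. It was dim at 0 h and rose by 1.45 at 2 h in KO cells (adjusted p = 0.00071) and by 1.75 in WT cells (adjusted p = 0.00011). Hcar2, the receptor for hydroxybutyrate and nicotinic acid, was 1.31 higher at 4 h in KO cells and 1.18 higher in WT cells (adjusted p = 2.2e-06 and 6.4e-06). Lpar6, a lysophosphatidic acid receptor, fell by 0.60 and 0.91 at 4 h (adjusted p = 0.0028 in KO cells and 7.3e-05 in WT cells). None of the 5 P2Y nucleotide receptor genes tested was called at 2 or 4 h in either genotype, and their median differences from 0 h lay between −0.19 and −0.03. Among 22 other genes with Gpr-numbered symbols, Gpr85, an orphan of the SREB family, rose by 1.57 at 2 h in KO cells (adjusted p = 3.6e-06) and 1.96 in WT cells (adjusted p = 2.3e-07).

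Downstream of the receptors, arrestins bind the activated receptor and take it off its G protein. Arrb2 fell by 1.09 at 4 h in KO cells (adjusted p = 1.9e-06) and by 1.21 in WT cells (adjusted p = 5.3e-07). Arrb1 fell by 1.42 and 1.34 (adjusted p = 1.5e-05 and 2.4e-05). Of the 5 receptor kinase and arrestin genes tested, 0 rose and 2 fell at 4 h in KO cells, and 1 rose and 4 fell in WT cells. Of all genes, 7.24% rose and 10.9% fell in KO cells, and 8.31% and 9.9% in WT cells. The kinase gene Grk5 went the other way, called higher by 0.62 at 4 h in WT cells. At 2 h it was called higher by 0.53 in KO cells and 0.82 in WT cells. Of 21 cAMP pathway genes tested, 2 rose and 7 fell at 4 h in KO cells, and 0 rose and 7 fell in WT cells, with list medians of −0.25 and −0.16, where 7.24% of all genes rose and 10.9% fell in KO cells and 8.31% and 9.9% in WT cells. The cAMP phosphodiesterase gene Pde3b was at −1.41 and −1.55 at 4 h (adjusted p = 3.3e-08 in KO cells and 8.8e-09 in WT cells), and the protein kinase A regulatory subunit genes Prkar2a and Prkar2b were at −1.17 and −1.05 in KO cells and −1.33 and −1.15 in WT cells, all past the test. Pde4b averaged −0.46 ± 0.04 on the KO arrays relative to WT (adjusted p = 4.6e-06), but −0.12 (adjusted p = 0.20) when its probe sets were averaged. Of 14 RGS genes, which shorten G protein signals, 1 rose and 2 fell at 4 h in KO cells and 1 rose and 1 fell in WT cells. Rgs1 rose by 0.51 at 4 h in KO cells (adjusted p = 2.6e-05) and by 0.30 in WT cells (adjusted p = 0.0028), Rgs10 fell by 0.43 in KO cells (adjusted p = 0.00052), and Rgs2 fell by 0.35 in each genotype (adjusted p = 0.015 in KO cells and 0.016 in WT cells). Among 11 G protein alpha subunit genes, 0 rose and 2 fell at 4 h in KO cells and 0 rose and 3 fell in WT cells, by at most 0.34, beside the same shares of all genes as for the cAMP list.

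**Figure D5:**
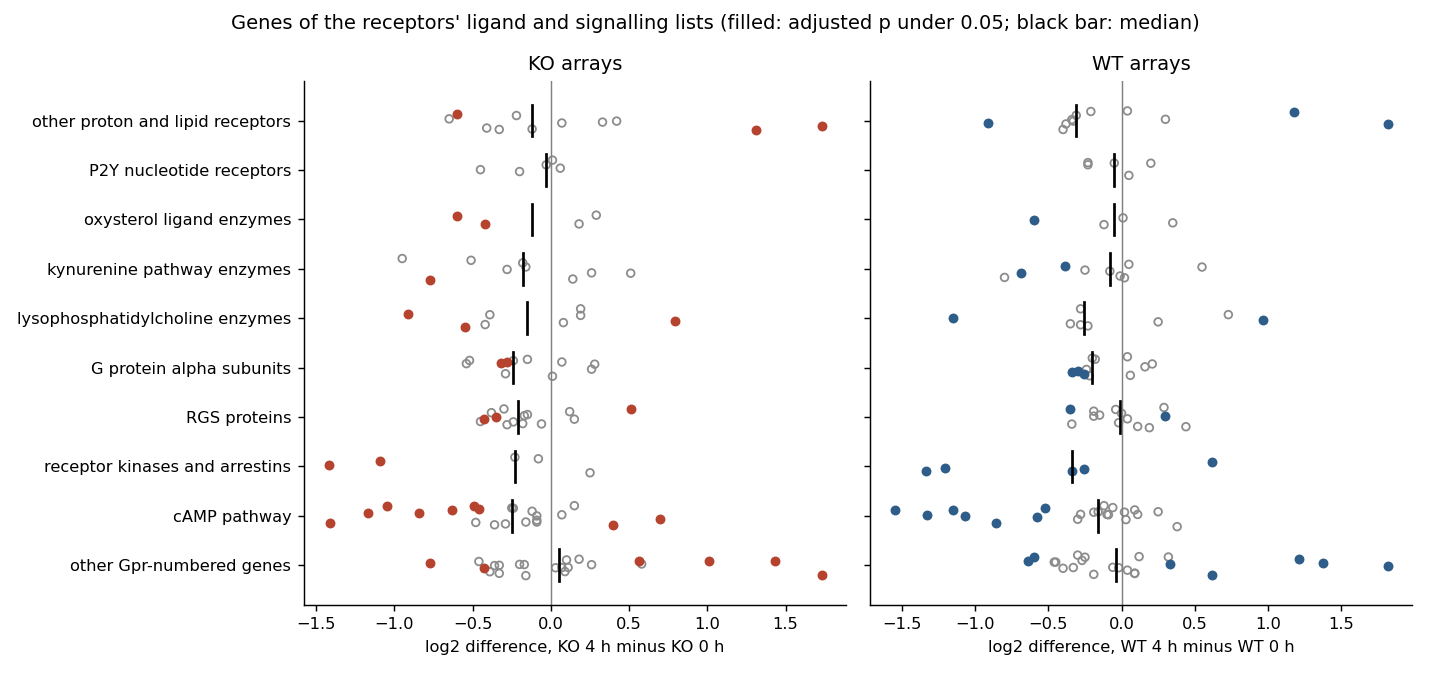
Log2 difference between 4 h and 0 h in KO cells (left) and WT cells (right) for each tested gene of the ligand and signalling lists; filled points passed an adjusted p of 0.05, open points did not, and black bars are list medians. Arrestin and cAMP pathway genes hold the lowest filled points on both sides.

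The genes whose levels ran most like each receptor over the 12 arrays were found among 12791 others by Pearson correlation, which is given as a description because all points share the 12 arrays and the groups. Gpr65 was most like Zbtb18 (r = 0.980) and Galnt7 (0.976) and most opposed to Sdc4 (−0.980). Gpr183 was most like Gtf2b (0.993) and Synpo2 (0.992), and Gpr18 most like Rtn1 (0.989) and Sod2 (0.976), the mitochondrial superoxide dismutase gene. Gpr84 ran with Atl3 (0.945) and Plcg2 (0.940), Gpr35 with Ccni (0.966) and Tprgl (0.964), Gpr171 with Ints2 (0.972) and Sephs2 (0.932), and Gpr132 with Fancg and Mkln1 (0.914 each). Among the receptors themselves, the level of Gpr183 was most opposed to that of Gpr65 (r = −0.94) and Gpr35 (−0.85), and Gpr84 ran with Gpr18 (0.82).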

How the data were processed

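RNA of the 12 cell samples was measured on Affymetrix mouse 3' expression arrays. Per the labels' protocols, it was extracted with Trizol, cleaned on columns and labelled with a 3' in vitro transcription kit. The deposited values are linear intensity values, 1 per probe set and array, made with MAS5 per the submitters' processing notes; its version, scaling and detection calls are not given in the sources used here. Arrays carry no read depth, and their number, 2 a group, limits the precision.

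The intensities were quantile-normalised over the 12 arrays and taken as log2(value + 16). The platform annotation gave a single symbol for 34958 of 45101 probe sets, several for 932 and none for 9211. The probe set of highest mean stood for a gene, and the 12792 genes at or above the 40th percentile of probe set means were tested. limma 3.58.1 in R 4.3.3 was fitted on the 6 group means (eBayes with trend, 6 residual and 9.13 prior degrees of freedom, two-sided), with Benjamini-Hochberg adjustment over all genes of a comparison. The procedure was tested on simulated data. There, the test of whether the 2 h response differed between genotypes recovered 11.9% of log2 changes of 0.5 and 61.2% of those of 1. For KO minus WT at 2 h the shares were 32.8% and 73.1%. In each simulation 67 of the 12792 genes were given each of these sizes, and the shares hold for that setting. A difference of such a size that was not called is therefore not shown to be absent.

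The receptors, gene lists and tests were chosen with earlier results of these data known. Named besides the receptors were the 2 most correlated genes and the most opposed gene of each, up to 3 called genes with the smallest p per list and comparison, all genes of lists of 5 or fewer, overlapping or called neighbours, and at most 3 examples per marker list. Replicate letters were not used as a block. The alternatives covered scaling, pseudocount, filter, probe set choice, the variance trend, the samples fitted, the block, the threshold and leaving out each array.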

Additional observations from a re-analysis of the deposited data

How the results depend on the processing

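Of 23 calls for the 7 receptor genes, 20 to 23 were kept without each array in turn, and none turned. Under other settings 23 were kept with trimmed-mean scaling, with a pseudocount of 64 and with a filter at the 60th percentile. The same 23 were kept without probe sets named _x_at or _s_at, which were left out where a gene had another probe set. With a pseudocount of 1 or no filter 22 were kept, and 21 with probe sets averaged or with only the groups compared in the fit. The count was 20 without the variance trend, 15 on the deposited scale and 11 where a size of at least 1 on the log2 scale was also required. On the deposited scale the median over all genes moved to −0.41 at 2 h in KO cells and −0.35 in WT cells, and to −0.20 and −0.16 at 4 h. Between 2 and 4 h it was 0.2 in KO cells and 0.19 in WT cells. For KO minus WT it was −0.15 at 2 h and −0.12 on average over the times. The differences given on that scale were not corrected for these medians.

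Receptor genes called went to 1 on the deposited scale and 0 under a size of at least 1 on the log2 scale at KO 4 h minus 2 h, to 2 under that size at WT 2 h and WT 4 h, and to 1 on the deposited scale, without the trend and under that size at WT 4 h minus 2 h, with 1 to 2 as arrays were left out. For KO minus WT at 2 h there were 0 on the deposited scale, without the trend and under that size, 2 with trimmed-mean scaling, pseudocount 64, the 60th percentile filter and a threshold of 0.1, and 0 to 2 as arrays were left out. At 4 h there was 1 with pseudocount 64 and with threshold 0.1. For the average there were 0 on the deposited scale and under that size, 2 with the 60th percentile filter and threshold 0.1, and 1 to 2 as arrays were left out.

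Deviations of same-letter arrays correlated at −0.04 to 0.10 between groups. Such low values show no strong pairing by letter, but they do not settle whether the samples were paired. With the letter as a replicate block, 22 of the 23 calls were kept, 2 genes were called for KO minus WT at 2 h, and the all-gene count at KO 2 h was 2611, against 2503 without the block. All-gene counts were 853 and 832 at 4 h in KO and WT cells on the deposited scale, against 2315 and 2330, and 31, 66 and 43 between genotypes at 0, 2 and 4 h, against 422, 294 and 306. Averaging probe sets turned Gnas in KO cells at 4 h (0.09) and Gna13 in KO cells at 2 h (0.09). Leaving out _x_at and _s_at probe sets turned Pde7a in KO cells at 4 h (−0.06) and Grk3 in WT cells at 4 h (0.29). Of 130 list gene calls, 92 were kept on the deposited scale and 108 with probe sets averaged. In 43 results that were not called, the sign turned under some setting. The causes were not tested.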

Other observations

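Among the other genes with Gpr-numbered symbols, Gpr33, a receptor gene of the chemoattractant type, was higher at 4 h than at 0 h by 1.43 in KO cells (adjusted p = 2.2e-05) and by 1.38 in WT cells (adjusted p = 2.6e-05). Averaged over the times it was 0.56 ± 0.10 higher on the KO arrays (adjusted p = 0.0015), and this did not pass on the deposited scale (0.42, adjusted p = 0.068). Gpr19, an orphan receptor gene, was higher at 2 h by 0.60 in each genotype (adjusted p = 0.028 in each). Gpr137b, which encodes a lysosomal membrane protein, fell at 4 h by 0.43 in KO cells (adjusted p = 0.00068) and by 0.64 in WT cells (adjusted p = 1.7e-05). Its KO difference was −0.23 (adjusted p = 0.43) without _x_at and _s_at probe sets.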
